A study of Arabidopsis thaliana with 6 samples.

Results

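The genes described here are 8 loci of Arabidopsis thaliana, chosen by name: the repressors of light responses COP1, SPA1, SPA2, SPA3, SPA4 and DET1, and the light-response transcription factors HY5 and HYH. All 8 were found among the 33602 loci of the deposited gene counts, and all 8 passed the filter on low counts, which kept 18626 loci. RNA was sequenced from 3 libraries of athb1-1 seedlings, which carry a mutation in the homeodomain-leucine zipper gene ATHB1, and from 3 libraries of wild-type (WT) Columbia (Col-0) seedlings. Each library was made from whole seedlings, with root, hypocotyl and cotyledon together. Both genotypes had 3 days of cold stratification and then short days of 8 h light and 16 h darkness at 22 to 24 degrees C. They were grown in light of 120 µmol per square metre and second and collected 1 h before lights-on. Their age is labelled both as 4 days and as 72 h since stratification. The labels call the 3 libraries per genotype biological triplicates, and athb1-1 is the 1 mutant allele compared. In RNA from whole seedlings, fewer cells of a type and less RNA per cell cannot be told apart.

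COP1 is a RING-finger ubiquitin ligase that works in complexes with SPA proteins. In darkness these complexes, docked on a CUL4-DDB1 ligase, mark transcription factors such as HY5 and HYH for destruction by the proteasome, and light inactivates them through phytochromes, cryptochromes and the UV-B receptor UVR8. DET1 belongs to a separate complex with COP10 and DDB1 that also holds back light responses in the dark. HY5 and its homolog HYH are bZIP transcription factors that bind ACGT-containing promoter elements and turn on genes of greening, pigment synthesis and nitrate use. Much of this control acts on protein stability, which transcript counts do not show.

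Gene counts totalled 12841376 to 13153615 per athb1-1 library and 11036314 to 11974342 per WT library. The labels were checked with ATHB1 itself, whose exon bins had 120 to 141 counts in athb1-1 libraries and 4744 to 5823 in WT libraries. Its gene count was 0 everywhere, and the exon files hold its locus merged with an overlapping one. The summed cotyledon markers (4 of 4 with counts in every library) stood at 38849 to 46774 CPM (counts scaled to library size) in athb1-1 and 41346 to 53983 CPM in WT. The root markers (5 of 5) summed to 129 to 156 CPM in athb1-1 and 119 to 152 CPM in WT. Seed storage and oil body markers summed to 0.937 to 5.22 CPM in athb1-1 and 2.05 to 27.3 CPM in WT, with the highest value in WT replicate 2. The highest WT sum of all 3 marker lists was in that library, and the part of this in the results below was not tested.

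The comparison of athb1-1 with WT asked which transcripts differ when ATHB1 is mutated. None of the 8 genes passed the test for a change. All 8 log2 fold changes lay between −0.24 and 0.06, so the largest difference was a 0.85-fold level of HYH in athb1-1. HY5, COP1, DET1 and the SPA genes each had libraries of both genotypes in overlapping ranges, while HYH was lower in every athb1-1 library than in every WT library. With edgeR's quasi-likelihood test and Benjamini-Hochberg adjustment over all loci tested, 0 of 8 passed an adjusted p of 0.05, against 0.0537% of all loci (0.0215% higher and 0.0322% lower in athb1-1). HYH alone had an unadjusted p under 0.05, as did 5.24% of all loci, and DESeq2 also called 0 of 8, against 0.11% of loci. Non-overlapping genotypes, as for HYH, were seen in 11.3% of all loci, and in 5.49% with athb1-1 lower.

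**Figure D1:**
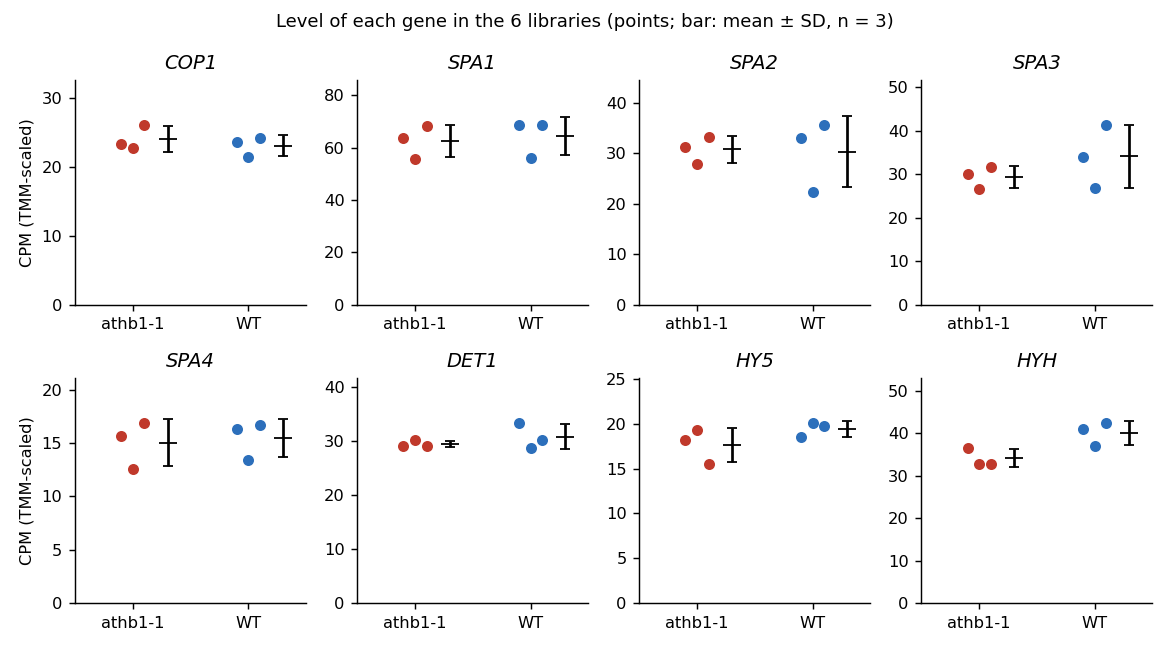
Level of each gene in CPM (vertical axis, from 0) in the 3 athb1-1 libraries (red points) and the 3 WT libraries (blue points), with the mean and SD of each genotype as a bar. The genotypes overlap for every gene except HYH, where the athb1-1 libraries lie at 32.9 to 36.6 CPM and the WT libraries at 36.9 to 42.4 CPM.

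HYH (AT3G17609; chromosome 3, 6023844 to 6024710, plus strand, TAIR10.1) had the lowest p of the 8. It stood at 36.6, 32.9 and 32.9 CPM in athb1-1 libraries, and at 41.1, 36.9 and 42.4 CPM in WT libraries. The highest athb1-1 library, replicate 1, lay just under the lowest WT library, replicate 2. The means were 34.1 ± 2.14 CPM in athb1-1 and 40.1 ± 2.86 CPM in WT (SD, n = 3 each). The log2 fold change was −0.24 (SE 0.10), or 0.85-fold with a 95% interval of 0.733 to 0.985. By edgeR the unadjusted p was 0.0336 and the adjusted p 0.939. The log2 fold change was −0.30 without WT replicate 2 (edgeR adjusted p 0.120). It passed the threshold in 1 of 14 alternatives, with WT replicate 2 left out and a trend with transcript length removed from each library together (log2 fold change −0.40, edgeR adjusted p 0.0315). Over the 14 alternatives the adjusted p ran up to 1.00.

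HY5 (AT5G11260; chromosome 5, 3593335 to 3595073, minus strand), the better known of the pair of bZIP factors, had overlapping genotypes. Its level was 18.2, 19.3 and 15.5 CPM in athb1-1 libraries and 18.5, 20.1 and 19.7 CPM in WT libraries. One athb1-1 library, replicate 3, lay below the rest, and athb1-1 replicate 2 lay inside the WT range. The log2 fold change of −0.14 (SE 0.11, edgeR adjusted p 0.971) corresponds to 0.909-fold, with a 95% interval of 0.766 to 1.08. Without athb1-1 replicate 3 it was −0.054.

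Per length of exon, HYH was the more abundant of the pair. On the scale of CPM divided by exonic length in kilobases (FPKM), HYH averaged 44.0 ± 2.76 in athb1-1 and 51.8 ± 3.69 in WT, and HY5 averaged 14.1 ± 1.53 in athb1-1 and 15.5 ± 0.673 in WT (SD, n = 3 each). The ratio of HYH to HY5 FPKM was 3.25, 2.76 and 3.43 in athb1-1 libraries and 3.60, 2.98 and 3.48 in WT libraries, so replicate 2 had the lowest ratio in each genotype and the genotypes overlapped. The difference in the log2 ratio, athb1-1 minus WT, was −0.092, with an exact permutation p of 0.500 (two-sided, 3 against 3, smallest p possible 0.1). It ran from −0.18 without WT replicate 2 to −0.0012 without athb1-1 replicate 2. The ratio, though not this difference between genotypes, depends on the exonic lengths used.

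HYH is a known transcriptional target of HY5, so the promoters of the pair are shown. Each is the 250 bases before the annotated RefSeq gene start in TAIR10.1, on the gene's own strand, with ACGT, the core of bZIP binding elements, in capitals. HY5 is chr5:3595074-3595323 on the minus strand and HYH is chr3:6023594-6023843 on the plus strand.
HY5: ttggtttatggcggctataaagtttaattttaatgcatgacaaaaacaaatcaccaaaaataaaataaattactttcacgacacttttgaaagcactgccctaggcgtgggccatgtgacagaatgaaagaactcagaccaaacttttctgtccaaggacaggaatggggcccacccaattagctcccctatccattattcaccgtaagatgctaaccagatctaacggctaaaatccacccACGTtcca
HYH: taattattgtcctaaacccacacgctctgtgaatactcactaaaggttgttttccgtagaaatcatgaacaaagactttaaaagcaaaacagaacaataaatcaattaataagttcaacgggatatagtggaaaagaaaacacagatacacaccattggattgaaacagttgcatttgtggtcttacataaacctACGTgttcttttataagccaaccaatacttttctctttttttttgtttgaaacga
Both windows hold 1 ACGT, which begins 8 bases before the gene start in HY5 and 55 bases before it in HYH. Across the 8 genes, 6 windows held at least 1 ACGT, in SPA2 and SPA3 at 2 places, while SPA4 and DET1 held none. Of 27443 promoters of protein-coding genes cut the same way, 44.1% held ACGT. Searched on both strands, the G-box CACGTG, which contains ACGT, was in 0 of the 8 windows and 6.49% of all windows. The pseudopalindrome CAATNATTG, bound by class I homeodomain-leucine zipper factors such as ATHB1, was in 0 of 8 and 0.918% of all windows. These matches describe letters in a short window and do not show binding.

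COP1 (AT2G32950; chromosome 2, 13977881 to 13983609, plus strand), the ligase itself, was among the steadiest of the 8. It had 23.3, 22.6 and 26.1 CPM in athb1-1 libraries and 23.6, 21.4 and 24.2 CPM in WT libraries. The WT libraries lay within or just under the athb1-1 range. The log2 fold change was 0.058 (SE 0.11, edgeR adjusted p 0.978), or 1.04-fold with a 95% interval of 0.888 to 1.22, and it changed sign without athb1-1 replicate 3 (−0.0062) or WT replicate 2 (−8.0e-04). DET1 (AT4G10180; chromosome 4, 6346411 to 6349314, plus strand) had 29.2, 30.2 and 29.1 CPM in athb1-1 libraries and 33.4, 28.7 and 30.3 CPM in WT libraries. Its athb1-1 libraries fell inside the WT range. The DET1 log2 fold change was −0.063 (SE 0.097, edgeR adjusted p 0.974), or 0.958-fold with a 95% interval of 0.827 to 1.11. It was −0.0050 without WT replicate 1 and −0.12 without WT replicate 2. The coefficient of variation (CV, the SD as a percentage of the mean) of DET1 was 2.13% in athb1-1 and 7.62% in WT, where counting error alone gives 5.21% at its depth.

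The SPA genes encode WD-repeat partners of COP1 that its ligase activity in plants requires. SPA1 (AT2G46340; chromosome 2, 19022154 to 19027528, minus strand) had 63.6, 55.8 and 68.3 CPM in athb1-1 libraries and 68.5, 56.2 and 68.8 CPM in WT libraries. Replicate 2 was the lowest library in each genotype. Its log2 fold change was −0.044 (SE 0.11, edgeR adjusted p 0.987), or 0.970-fold with a 95% interval of 0.820 to 1.15, and it turned positive without athb1-1 replicate 2 (0.027) or WT replicate 3 (0.0046). SPA2 (AT4G11110; chromosome 4, 6771605 to 6777225, plus strand) had 31.3, 27.9 and 33.1 CPM in athb1-1 libraries and 32.9, 22.3 and 35.6 CPM in WT libraries. WT replicate 2 was again low, and the athb1-1 libraries lay inside the WT range. The SPA2 log2 fold change was 0.021 (SE 0.15, edgeR adjusted p 0.998), or 1.01-fold with a 95% interval of 0.804 to 1.28, and it turned negative without athb1-1 replicate 3 (−0.035) or WT replicate 2 (−0.16).

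SPA3 (AT3G15354; chromosome 3, 5169095 to 5173105, minus strand) had 30.0, 26.6 and 31.6 CPM in athb1-1 libraries and 34.0, 26.8 and 41.4 CPM in WT libraries. The highest value was in WT replicate 3, while WT replicate 2 fell among the athb1-1 libraries. Its log2 fold change of −0.21 (SE 0.14, edgeR adjusted p 0.951) was the next lowest after HYH, at 0.862-fold with a 95% interval of 0.695 to 1.07. This value rested on single WT libraries: it was −0.37 without WT replicate 2 (edgeR adjusted p 0.0908) and −0.049 without WT replicate 3. SPA4 (AT1G53090; chromosome 1, 19783185 to 19786902, plus strand) had 15.7, 12.6 and 16.9 CPM in athb1-1 libraries and 16.3, 13.4 and 16.7 CPM in WT libraries. Its WT libraries lay inside the athb1-1 range, and its log2 fold change was −0.040 (SE 0.14, edgeR adjusted p 0.990), or 0.973-fold with a 95% interval of 0.790 to 1.198. It turned positive without athb1-1 replicate 2 (0.069) or WT replicate 3 (0.022). SPA3 overlaps AT3G15350 by 135 bp and SPA4 overlaps AT1G53100 by 3 bp, both on the opposite strand. These are overlaps whose reads cannot be assigned without knowing whether counting used strand, which no source here states.

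**Figure D2:**
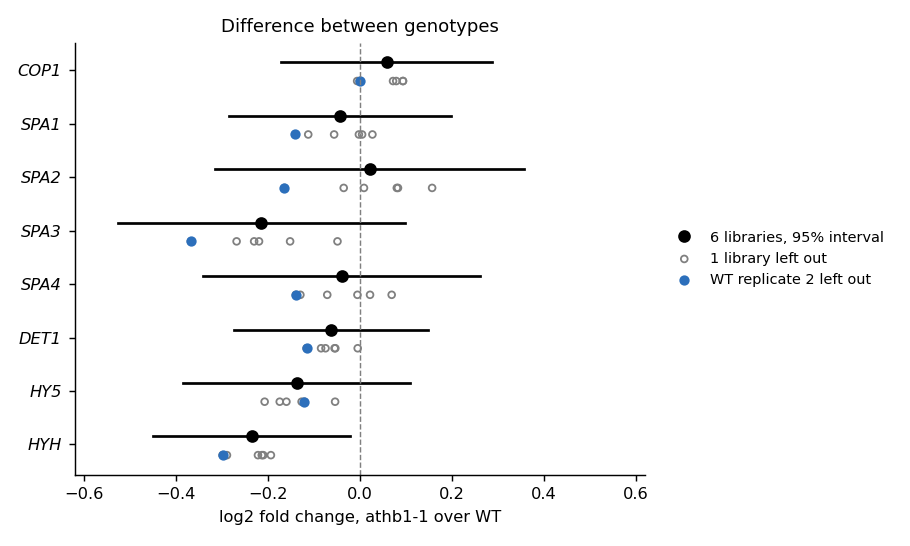
Log2 fold change, athb1-1 over WT (horizontal axis), for each gene with all 6 libraries (black point, bar for the 95% interval), with 1 library left out (open circles) and with WT replicate 2 left out (blue). Only the interval of HYH, −0.45 to −0.022, does not include 0, and the SPA3 value moves between −0.37 and −0.049 as single libraries are left out.

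The deposited table of the authors' own comparison holds all 8 genes and gives each an adjusted p of 1. With its sign turned to athb1-1 over WT, the authors' deposited table lists a log2 fold change of −0.24 for HYH (unadjusted p 0.0532), −0.22 for SPA3 and −0.14 for HY5. In it the other 5 genes lie between −0.064 and 0.056.

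The proportions among the SPA genes were compared next. Of the summed SPA1 to SPA4 FPKM, SPA1 took 42.0, 42.3 and 42.3% in athb1-1 libraries and 41.9, 43.9 and 39.2% in WT libraries. The athb1-1 libraries lay close together, inside the wider WT range. The mean share was 42.2 ± 0.181% in athb1-1 and 41.7 ± 2.39% in WT (SD, n = 3 each; exact permutation p 0.700, two-sided, smallest p possible 0.1). SPA2 took 21.5, 22.0 and 21.4% in athb1-1 libraries and 21.0, 18.1 and 21.1% in WT libraries. All athb1-1 libraries lay above all WT libraries, by a mean of 1.54 percentage points, or 0.575 without WT replicate 2. SPA3 took 23.1, 23.5 and 22.8% in athb1-1 libraries and 24.2, 24.4 and 27.4% in WT libraries. All athb1-1 libraries lay below all WT libraries, with a mean difference of −2.24 percentage points, or −1.21 without WT replicate 3. For SPA2 and for SPA3 the exact permutation p was 0.1, the smallest that 3 against 3 allows, and 0.2 after Benjamini-Hochberg adjustment over the 4 shares, which sum to a whole and are not independent. SPA4 took 13.1 ± 0.665% in athb1-1 and 12.9 ± 0.607% in WT, with overlapping libraries (exact permutation p 0.700, two-sided, n = 3 each). Its difference of 0.175 percentage points turned negative without athb1-1 replicate 3 (−0.048) or WT replicate 3 (−0.122). The summed SPA level was 35.9 ± 3.60 FPKM in athb1-1 and 37.7 ± 5.99 FPKM in WT (exact permutation p 0.700, two-sided, n = 3 each).

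Per length, the 8 genes fell into an order that ran from HYH down to SPA4. Over all 6 libraries the mean level was 47.9 FPKM for HYH, 15.6 for DET1, 15.4 for SPA1, 14.8 for HY5, 9.49 for COP1, 8.95 for SPA3, 7.70 for SPA2 and 4.77 for SPA4. HYH lay above DET1 in 6 of 6 libraries, by 3.06-fold, and HY5 lay above COP1 in 6 of 6, by 1.55-fold. SPA3 exceeded SPA2 in 6 of 6 libraries (1.16-fold), and SPA2 exceeded SPA4 in 6 of 6 (1.61-fold). On the exonic lengths used, DET1, SPA1 and HY5 did not separate. DET1 was above SPA1 in 3 of 6 libraries and SPA1 above HY5 in 4 of 6. COP1 was above SPA3 in 4 of 6. Of 7 neighbouring pairs, the 4 ordered alike in every library had an exact sign-flip permutation p of 0.0313, the smallest that 6 libraries allow, and 0.0547 after Benjamini-Hochberg adjustment over the 7. The pairs and their direction were taken from the mean FPKM of these same 6 libraries. These p-values therefore do not test an order fixed beforehand. The exonic lengths, 775 bp for HYH to 4128 bp for SPA1, are those of TAIR10.1. They join the exons of all annotated transcripts of a gene. HY5 exon 3, for instance, is 385 bp in 1 annotated transcript and 157 bp in the other. A different mix of transcripts, or longer or shorter transcript ends in seedlings, would move these levels. An error in length is shared by all 6 libraries, so the sign-flip p does not measure it.

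The libraries differed in how they represented the long SPA transcripts, in both genotypes. Measured as the deviation of log2 CPM from each gene's mean over 6 libraries, WT replicate 2 was low for SPA1 (−0.17), SPA2 (−0.43), SPA3 (−0.22) and SPA4 (−0.17). In the same library HYH was at −0.00037 and HY5 at 0.12. In athb1-1 replicate 2 the SPA genes lay between −0.26 and −0.11, whereas in WT replicate 3 they lay between 0.12 and 0.39. Among all 1633 genes of 3000 bp and over with a mean of at least 10 CPM, the median deviation was −0.069 in athb1-1 replicate 2, −0.18 in WT replicate 2 and 0.12 in WT replicate 3. The CV of SPA2 was 8.64% in athb1-1 and 23.3% in WT, and that of SPA3 was 8.60% in athb1-1 and 21.3% in WT. With the trend removed and WT replicate 2 left out, the SPA3 log2 fold change was −0.28 (edgeR adjusted p 0.184).

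**Figure D3:**
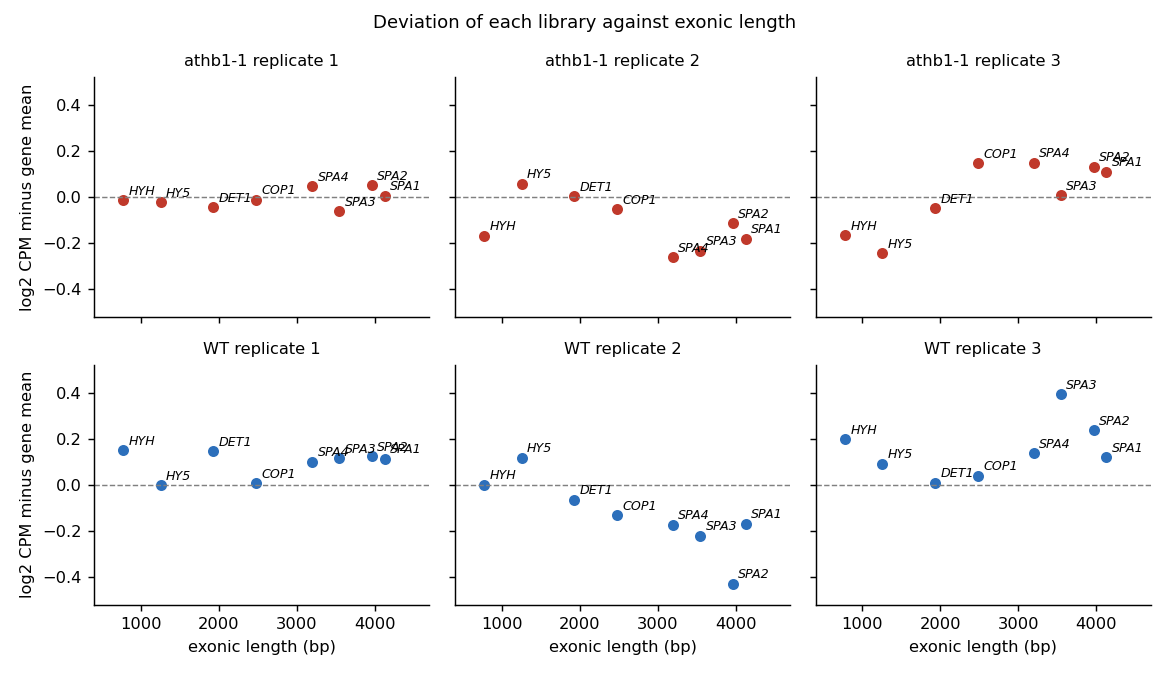
Deviation of log2 CPM from each gene's mean over the 6 libraries (vertical axis) against exonic length in bp (horizontal axis), 1 panel per library, with athb1-1 above in red and WT below in blue. In athb1-1 replicate 2 and WT replicate 2 the 4 SPA genes, the longest of the 8, lie between −0.43 and −0.11, and in WT replicate 3 they lie between 0.12 and 0.39. HYH, the shortest, lies at −0.17 in athb1-1 replicate 2 and at 0.20 in WT replicate 3.

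Exon usage was compared as well, since a mutant could change which parts of a transcript are made without changing its total. The exon files hold 4 bins for HY5 to 13 for COP1, and 64 bins of the 8 genes were tested. None of the 8 genes passed in edgeR's exon usage test with Benjamini-Hochberg adjustment, against 0.00781% of 12808 loci. COP1 was the 1 member with an unadjusted Simes p under 0.05 (0.0438, edgeR adjusted p 1.00), as were 0.617% of all loci. Its lowest value was in bin 8, which had 26, 30 and 23 counts in athb1-1 libraries and 48, 22 and 39 counts in WT libraries. In these raw counts, which are not scaled to library size or to the COP1 total, WT replicate 2 was the lowest of the 6 and the genotypes overlapped. That bin held 6.61 ± 1.24% of COP1's bin counts in athb1-1 and 10.7 ± 3.42% in WT (SD, n = 3 each), a relative log2 fold change of −0.72 (unadjusted p 0.00337 in the edgeR exon test). Each RefSeq transcript of COP1 listed in TAIR10.1 has 13 exons, as many as the file has bins, and by that order bin 8 is the coding exon 8 at chr2:13981421-13981576. The direction of the order was checked on 2717 single-transcript genes of at least 500 bin counts with equal numbers of bins and exons. In 91.1% of them, bin counts correlated better with exon lengths in ascending than in descending order along the chromosome. That check concerns the direction only, not whether a given bin is a given exon. The sequence of COP1 exon 8, 156 bases on the plus strand in TAIR10.1, is given because it is where the bins of COP1 differed most.
COP1 exon 8: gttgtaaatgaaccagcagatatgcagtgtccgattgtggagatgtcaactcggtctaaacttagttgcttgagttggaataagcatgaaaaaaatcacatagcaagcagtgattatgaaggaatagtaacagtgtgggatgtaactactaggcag
In HY5, the 4 bins each took nearly the same share in both genotypes, for instance 35.8 ± 3.85% in athb1-1 and 36.6 ± 1.204% in WT for bin 3 (SD, n = 3 each). In HYH, which has 4 annotated transcripts, bins 7 and 8 took 32.1 ± 0.824% and 31.9 ± 0.698% in athb1-1, and 34.0 ± 2.06% and 32.8 ± 2.55% in WT. SPA4 bin 10 took 18.9 ± 1.60% in athb1-1 and 13.5 ± 2.02% in WT (unadjusted p 0.0441 in the edgeR exon test). The Simes p of SPA4 in that test was 0.309. The bin p-values of COP1 and SPA4 are unadjusted and come from 64 bins tested.

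**Figure D4:**
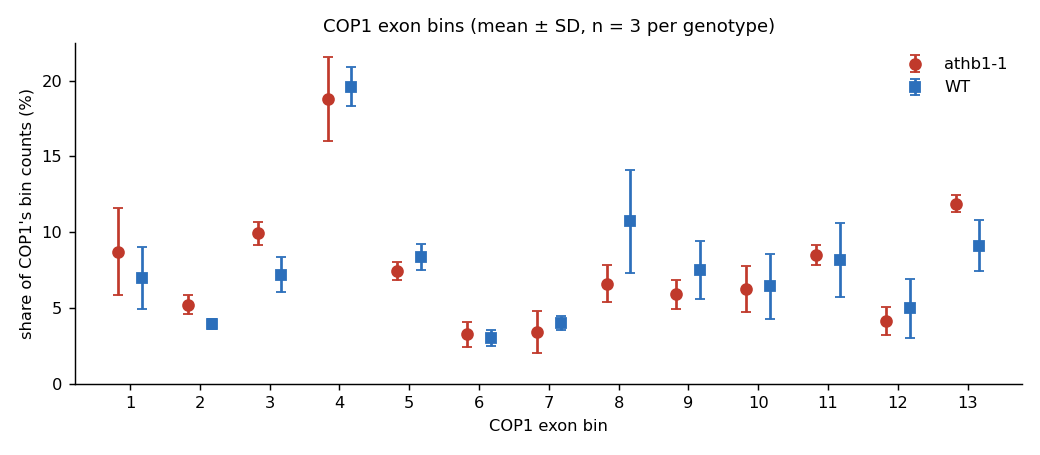
Share of COP1's exon bin counts (vertical axis, percent, from 0) in each of its 13 bins (horizontal axis), as mean ± SD of 3 athb1-1 libraries (red circles) and 3 WT libraries (blue squares). Bin 8 is at 6.61% in athb1-1 and 10.7% in WT with a wide WT spread, and bin 4 holds the largest share in both genotypes.

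Partners, substrates and targets of the 8 genes did not pass the same test either. Of 67 genes in 8 lists, 64 had a matching annotated symbol and 57 passed the filter on low counts. edgeR called 0 higher and 0 lower among the 57, DESeq2 called 0, and 3 had an unadjusted p under 0.05, a share near the 5.24% of all loci. The log2 fold change was above 0 in 25 of the 57, and its median was −0.043, beside 51.7% positive and a median of 0.0064 over all genes tested. Groups did not overlap for 5 of the 57, with 2 higher and 3 lower in athb1-1, a share below the 11.3% of all loci.

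Among genes of the ligase machinery, the DET1 complex and CUL4 core had 5 tested members and a median log2 fold change of −0.10. COP10, the DET1 partner related to ubiquitin-conjugating enzymes, was at 12.0 ± 0.483 CPM in athb1-1 and 13.5 ± 1.60 CPM in WT (log2 fold change −0.16, SE 0.12, and −0.066 without WT replicate 1). DDB1A, the CUL4 adaptor with the highest level of this list, was at 113 ± 3.45 CPM in athb1-1 and 121 ± 8.26 CPM in WT (log2 fold change −0.10, SE 0.090, and −0.055 without WT replicate 2). The COP9 signalosome, which removes the NEDD8/RUB modification from cullins, had 10 tested subunits, 4 positive and 6 negative, with a median of −0.055. Its CSN2 stood at 43.3 ± 1.73 CPM in athb1-1 and 37.5 ± 4.99 CPM in WT (log2 fold change 0.21, SE 0.11, and 0.098 without WT replicate 2). CSN6B stood at −0.23 (SE 0.21, and −0.35 without athb1-1 replicate 3) and CSN8 at −0.058 (SE 0.12, and 0.039 without WT replicate 2).

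Of proteins that COP1 targets, 8 of 10 genes were tested, 6 positive and 2 negative, with a median of 0.073. HFR1, a bHLH factor that restrains PIF growth factors, stood at 46.7, 50.4 and 49.7 CPM in athb1-1 libraries and 45.7, 38.7 and 43.8 CPM in WT libraries. All athb1-1 libraries lay above all WT libraries, as for 5.86% of all genes, at a log2 fold change of 0.20 (SE 0.097, edgeR adjusted p 0.947), or 0.12 without WT replicate 2. CO, the flowering regulator CONSTANS, was at 0.660 ± 0.106 CPM in athb1-1 and 1.09 ± 0.265 CPM in WT (log2 fold change −0.72, SE 0.35, edgeR adjusted p 0.947). All its athb1-1 libraries lay below all WT libraries, as for 5.49% of all loci. At a mean of 0.299 FPKM, these CO values are near the floor and rest on few reads. PHYA, the far-red photoreceptor and most abundant of this list, stood at 0.040 (SE 0.11, and −0.049 without WT replicate 2).

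Of 11 tested COP1-interacting proteins and regulators, 5 were positive and 6 negative, with a median of −0.012. RUP2, a repressor of the UV-B receptor pathway, had 13.5, 16.2 and 13.4 CPM in athb1-1 libraries and 19.0, 19.7 and 16.1 CPM in WT libraries. The athb1-1 replicate 2 library lay just above WT replicate 3, so the genotypes overlapped, and the log2 fold change was −0.35 (SE 0.12, edgeR unadjusted p 0.0160, adjusted p 0.939). SHW1, a seedling development regulator that interacts with COP1 and HY5, stood at −0.31 (SE 0.12, edgeR unadjusted p 0.0206, adjusted p 0.939) with all athb1-1 libraries below all WT libraries, and CIP8, a RING-finger protein that binds COP1, at −0.070 (SE 0.088). The B-box partners, 7 tested, ranged from −0.12 for BBX25 to 0.018, with BBX21 at −0.043 (SE 0.085) and BBX24 at 0.0031 (SE 0.088). BBX25 was at −0.050 without WT replicate 2. The sign of the BBX24 value, which is far smaller than its SE, changed with the scaling. It was −0.0026 with RLE size factors and 0.0084 with upper-quartile scaling. The median over all genes moved as well, from 0.0064 to 7.7e-04 with RLE and 0.012 with upper-quartile scaling.

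Genes known as HY5 targets were in 3 lists. Of the flavonoid genes, 5 of 8 were tested, 1 positive and 4 negative. CHS, the first enzyme of flavonoid synthesis, was at 55.0 ± 8.23 CPM in athb1-1 and 62.5 ± 18.0 CPM in WT (log2 fold change −0.18, SE 0.19, and 0.069 without WT replicate 2), and the flavonol synthase gene FLS1 stood at 0.12 (SE 0.19, and 0.0084 without WT replicate 3). Of 7 photosynthesis and pigment genes, 3 were positive and 4 negative. The antenna protein gene LHCB1.3 stood at −0.18 (SE 0.12) and the Rubisco subunit gene RBCS1A at −0.14 (SE 0.13), which were −0.10 and −0.0061 without WT replicate 2. In the remaining list, 4 of 5 were tested, 2 positive and 2 negative. FHY1, which carries phytochrome A into the nucleus, had a log2 fold change of 0.23 (SE 0.12, edgeR adjusted p 0.947), with all athb1-1 libraries above all WT libraries.

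NIA2, the main nitrate reductase gene, had the lowest p of the 57. It stood at 2230, 2200 and 2098 CPM in athb1-1 libraries and 2826, 2738 and 2814 CPM in WT libraries. All athb1-1 libraries were below all WT libraries, and the gap between genotypes was wider than the range within either. The means were 2176 ± 68.7 CPM in athb1-1 and 2793 ± 47.7 CPM in WT (SD, n = 3 each), a log2 fold change of −0.36 (SE 0.089) or 0.779-fold. By edgeR the unadjusted p was 0.00160 and the adjusted p 0.457. NIA2 passed without WT replicate 2 (log2 fold change −0.38, edgeR adjusted p 0.0336) and in none of the other 13 alternatives, whose adjusted p ran from 0.0619 with DESeq2 to 1.00.

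**Figure D5:**
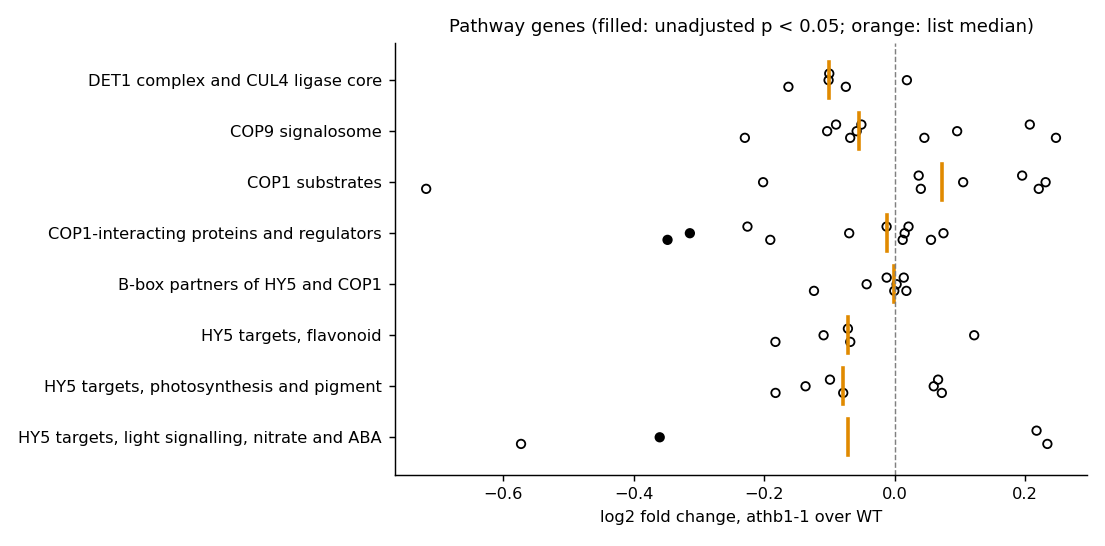
Log2 fold change, athb1-1 over WT (horizontal axis), of each tested gene in the 8 pathway lists (1 row per list; orange line, list median). The 3 filled points have an unadjusted p under 0.05 (RUP2, SHW1 and NIA2), and no point passes the adjusted threshold.

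Genes with a profile like that of HY5 or COP1 over the 6 libraries were sought among 10561 others with a mean of at least 10 CPM, by the root mean square difference of mean-centred log2 CPM. The nearest to HY5 were BGLU25 (0.031), AT1G56180 (0.035) and AT4G28370 (0.035). The nearest to COP1 were AT2G34040 (0.024), CYP71A22 (0.024) and AT2G04305 (0.025). These are the smallest of 10561 distances over only 6 libraries. Counting error alone gives a CV of 6.64% for HY5 and 5.89% for COP1, so such closeness can arise from noise. Whether the named genes share regulation with HY5 or COP1 was not tested. Over the 6 libraries COP1 and DET1 themselves had low spread. They were at the 22.3 and 12.3 percentile of the SD of log2 CPM among all genes of at least 10 CPM. SPA2 and SPA3 were at the 89.6 and 88.8 percentile, HYH at the 62.1 and HY5 at the 47.7.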

How the data were processed

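The authors deposited unnormalized read counts, 1 table of genes and 1 of exon bins per library. The submitters' processing notes name TAIR10, TopHat2 2.0.8 and Bowtie2 2.1.0. Which program counted the reads, and whether it used strand, is not stated there. The authors' deposited table of their own comparison gives log2 fold changes (positive where higher in WT, sign turned here), mean log2 CPM, p-values and adjusted p-values. Its 6 columns of per-library values were not used.

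Counts were tested with edgeR 4.0.16 in R 4.3.3 on all 6 libraries (TMM scaling, filterByExpr, robust quasi-likelihood F-test, genotype as the only term), with Benjamini-Hochberg adjustment over 18626 loci and a threshold of 0.05. CPM carry the TMM factors. SEs come from the F statistic, as the size of the log2 fold change over the root of F, and 95% intervals use the fitted degrees of freedom. The spread between libraries includes counting error. Exon usage was tested with diffSpliceDGE. Alternatives were RLE and upper-quartile scaling, DESeq2 1.42.0, no filter, a replicate block, a length trend removed (smoothing spline), summed exon bins and each library left out. The fits were tested on simulated data with known changes. FPKM use exonic lengths of RefSeq TAIR10.1, with the exons of all transcripts of a gene joined. Its symbols matched 64 of 67 listed loci. DDA1, RBX1A and CSU2 had no matching symbol and were left out.

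Log2 profiles used an offset of 0.5 CPM. The 8 genes and the lists were chosen with earlier results of these data known. Named beside the 8 were, per list, the 2 genes with the smallest p and the 1 with the highest mean FPKM, and 3 nearest profiles each for HY5 and COP1. Libraries of 1 genotype differed by more than sampling noise, so none was counted as a repeat. The chi-square per degree of freedom was 11.2 and 13.4 for WT replicate 2 with WT replicates 1 and 3. For all other pairs it was 4.48 to 4.67.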

Additional observations from a re-analysis of the deposited data

How the results depend on the processing

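None of the 8 genes passed in 13 of 14 alternatives. The exception was HYH with the length trend removed and WT replicate 2 left out, where 1 of the 8 and 105 genes in all passed. The number of changed genes was 10 with all libraries, 22 with DESeq2 and 19 with no filter on low counts. It was 165 without WT replicate 2, and 8 to 11 with any other library left out. The pathway lists held 0 to 1 and exon usage 0 to 1 changed loci with 1 library left out. Small values changed sign. With 1 library left out, log2 fold changes ran from −0.0062 to 0.094 for COP1, −0.14 to 0.027 for SPA1, −0.16 to 0.16 for SPA2, −0.14 to 0.069 for SPA4, −0.15 to 0.039 for CSN8, −0.049 to 0.10 for PHYA, −0.034 to 0.027 for BBX24 and −0.32 to 0.069 for CHS. The difference in SPA1 share ran from −0.731 to 1.65 percentage points and that in SPA4 share from −0.122 to 0.557. The tests and alternatives of the SPA2, SPA3 and SPA4 shares were chosen after seeing the data. With the length trend removed and WT replicate 2 left out, SPA2 was at −0.060, DDB1A at 0.042, BBX24 at −0.036 and CHS at 0.041. BBX24 was at −0.0026 with RLE size factors, −0.0033 with DESeq2, −0.025 with the length trend removed and −8.9e-05 with exon bin sums. The causes were not tested. Deviations of same-numbered libraries of both genotypes had correlations of −0.222, 0.350 and 0.249 for replicates 1, 2 and 3. With other numbers they were 0.0372 to 0.142, −0.395 to −0.106 and −0.364 to 0.296. So replicate 2 went with its own number, while replicates 1 and 3 did not clearly do so. A fit with the replicate number as a block called 12 genes and 0 of the 8. At 199 to 251 counts per library, counting error alone gives HY5 a CV of 6.64%, which limits what difference could be detected.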
